A study of Homo sapiens with 18 samples.

Results

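The mRNA levels of 10 inflammatory chemokine and cytokine genes were followed in 3 lung cancer cell lines with and without knockdown of SYK, a cytoplasmic tyrosine kinase best known for signalling below immune receptors. The genes were CXCL1, CXCL2, CXCL3, CXCL5, CXCL8 and CCL20, which encode chemokines, and IL1A, IL1B, IL6 and LIF, which encode cytokines. They were chosen by name, with earlier results of these data known. They make up 10 of the 58302 genes in the tables, and all 10 were found. EBC-1 cells carry MET amplification, and PC-9 and HCC827 cells carry an EGFR exon 19 deletion. In each line, cells with a stable lentiviral shRNA against SYK (shSYK) were compared with their negative control cells (nc), and each of the 6 groups has 3 libraries. The shRNA is a single clone, so its effects on other transcripts and the loss of SYK cannot be told apart. The labels do not say whether the libraries of a group came from separate cultures, so the p-values measure the spread between these libraries, which may be technical.

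Chemokines are small secreted proteins that bind receptors on leukocytes and direct their migration. CXCL1, CXCL2, CXCL3, CXCL5 and CXCL8 attract mainly neutrophils through CXCR2, and CXCL8 also through CXCR1, whereas CCL20 binds CCR6 on lymphocytes and dendritic cells. IL-1α and IL-1β start inflammatory signalling through the IL-1 receptor and NF-κB, and IL-6 and LIF signal through receptors that contain gp130 and activate STAT3. Epithelial cells and carcinomas can make all of these factors, their genes are textbook targets of NF-κB, and many of their mRNAs are short-lived because of AU-rich elements in the 3′ UTR.

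Between 7920099 and 15729103 reads per library lay on genes (median 11651793). Levels are given as FPKM, fragments scaled by gene length and by library, and for weakly expressed genes also as reads, which were recovered from the FPKM. A count of 3 reads or fewer was treated as no more than the floor of detection. SYK itself fell in the 3 lines, from 14.2 ± 1.07 to 7.43 ± 0.189 FPKM in EBC-1 cells, from 6.51 ± 0.698 to 2.09 ± 0.389 in PC-9 and from 9.08 ± 0.649 to 2.99 ± 0.472 in HCC827 (mean ± SD, n = 3, limma adjusted p = 0.000271, 0.00733 and 0.000197). In PC-9 this call was lost without nc replicate 3 (adjusted p = 0.0513) or without shSYK replicate 1 (adjusted p = 0.0638). The 5 markers of epithelium were above 1 FPKM on average in every group. The paper lists EBC-1 as a squamous cell lung cancer and PC-9 and HCC827 as lung adenocarcinoma, a glandular tumour. The 5 markers of lung adenocarcinoma summed to 87.0 to 145 FPKM in HCC827 libraries but to at most 2.99 in PC-9 and 1.07 in EBC-1. The 5 markers of squamous epithelium summed to at most 0.14 FPKM in EBC-1. Of 8 leukocyte markers, none reached a mean of 1 FPKM in EBC-1. In PC-9 only ITGAM did, at 2.77 FPKM in nc and 3.15 in shSYK. The endothelial markers PECAM1 and CDH5 averaged 13.4 and 2.42 FPKM in PC-9 nc and 4.98 and 2.38 in shSYK. The other endothelial markers, VWF and KDR, averaged 0.124 and 0.0245 FPKM in PC-9 nc and 0.0825 and 0.0189 in shSYK. KRT5, a keratin of squamous epithelium, averaged 20.7 FPKM in PC-9 nc and 138 in shSYK. The other squamous markers were low in PC-9 and did not all move that way. KRT6A averaged 0.723 FPKM in nc and 1.799 in shSYK. KRT14 and TP63 averaged 0.1275 and 0.0722 FPKM in nc and 0.0781 and 0.0460 in shSYK, and DSG3 had 0 reads in both. The part of these marker levels in the PC-9 results was not tested.

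The 5 CXC chemokine genes lie on the long arm of chromosome 4 within 358.8 kb (GRCh38, 73740506 to 74099293). The stretches of promoter shown here are the places where those 5 genes carried the same 9 bases, GGAATTTCC, a sequence bound by NF-κB, which is printed in capitals. They come from the RefSeq promoter table for GRCh38.p14, which covers 250 bases before to 50 bases after each start and held 9 of the 10 genes, LIF not among them.
CXCL8: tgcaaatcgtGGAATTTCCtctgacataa
CXCL1: tggaactccgGGAATTTCCctggcccggg
CXCL2: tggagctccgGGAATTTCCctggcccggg
CXCL3: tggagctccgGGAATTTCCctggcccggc
CXCL5: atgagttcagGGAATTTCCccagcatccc
The sites lie at chr4:73740468-73740496 for CXCL8 and chr4:73869305-73869333 for CXCL1 on the plus strand. Those of CXCL2 (chr4:74099254-74099282), CXCL3 (chr4:74038749-74038777) and CXCL5 (chr4:73998749-73998777) are on the minus strand and are printed in the direction of the gene. The 9 bases, searched on both strands, began 77 to 91 bases before the start and were present in 0.461% of the 35116 promoters searched. The broader NF-κB consensus, searched on both strands and overlapping the 9 bases, was found in 6 of the 9 genes (CXCL1, CXCL2, CXCL3, CXCL5, CCL20 and IL6) and in 5.91% of all promoters. The CCL20 and IL6 matches, shown with the consensus in capitals, read as follows.
CCL20: tgatcaatggGGAAAACCCCatgtggcaac
IL6: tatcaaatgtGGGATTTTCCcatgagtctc
They lie at chr2:227813753-227813782 and chr7:22727117-22727146. The AP-1 site TGANTCA was found in CXCL8 and IL1A (7.71% of all promoters), and the GC box GGGCGG in CXCL1 and CXCL3 (45.0%). These are matches of letters, and no binding was measured here.

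Levels of the 10 genes differed widely between the lines. EBC-1 nc cells held the most, with the 10 genes summing to 487 ± 33.3 FPKM. HCC827 nc cells held 271 ± 82.6 FPKM and PC-9 nc cells 28.5 ± 3.12 FPKM (SD, n = 3). The tables of the lines are separate, so these levels are set side by side and were not tested. The gene that led the sum was not the same in each line. CXCL8 had the highest mean in EBC-1 (142 FPKM), CXCL5 in HCC827 (146 FPKM) and LIF in PC-9 (24.1 FPKM). CXCL5 made up 59.8% of the CXC chemokine sum in HCC827 nc cells and 0.597% in EBC-1 nc cells. Upon knockdown the 10 genes summed to 378 ± 13.2 FPKM in EBC-1, while HCC827 cells held 126 ± 21.9 and PC-9 cells 25.6 ± 0.817 FPKM. RNA of whole cultures cannot tell fewer expressing cells from less RNA per cell.

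**Figure D1:**
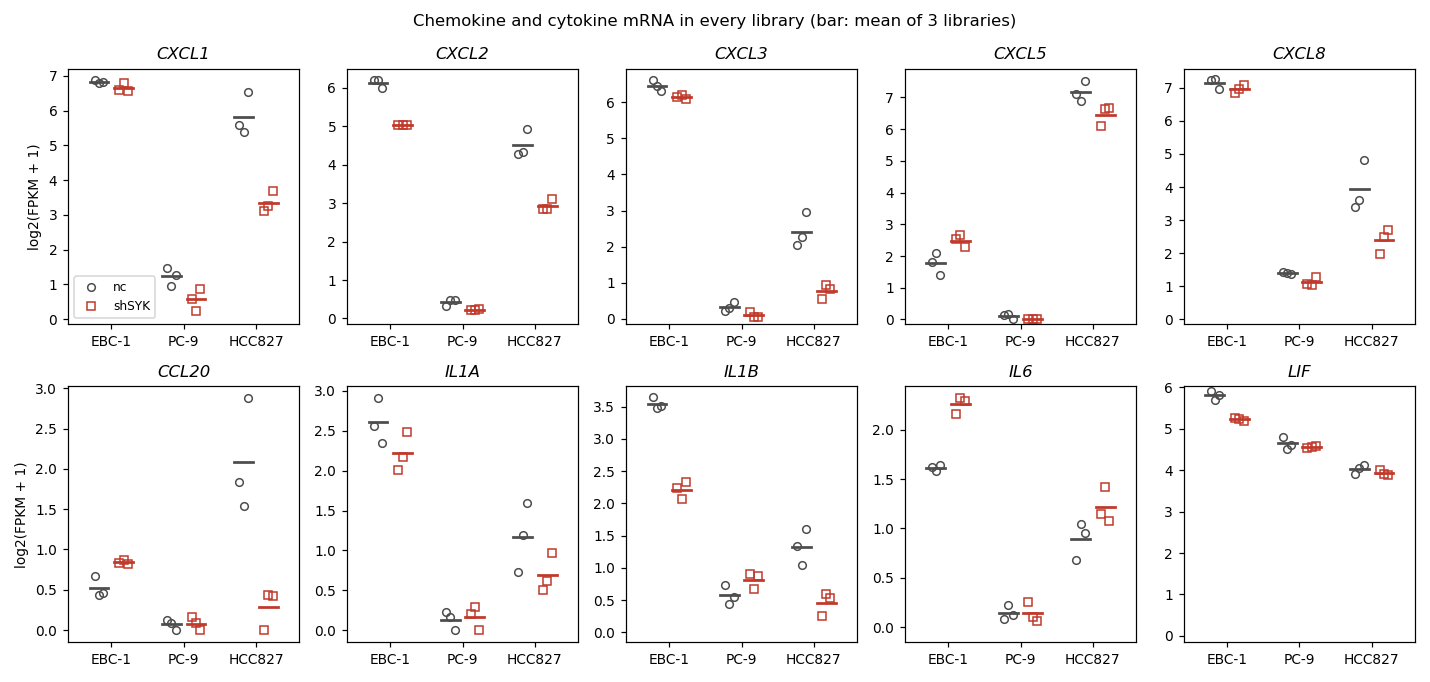
Level of each of the 10 genes as log2(FPKM + 1) in every library of EBC-1, PC-9 and HCC827, with nc libraries as circles, shSYK libraries as squares and the mean of 3 libraries on that scale as a bar (vertical axes differ between panels). CXCL1, CXCL2, CXCL3, CXCL8, IL1A, IL1B and LIF were highest in EBC-1 nc cells, CXCL5 and CCL20 in HCC827 nc cells, and the PC-9 libraries lay near the bottom of every panel except that of LIF.

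Differences between shSYK and nc were tested within a line with limma on log2(FPKM + 1), for genes with a mean of at least 1 FPKM over the 6 libraries, and called at a Benjamini-Hochberg adjusted p under 0.05 over all genes tested. In EBC-1, 9 of the 10 genes were tested, of which 2 rose and 4 fell. Of all 12430 genes tested in EBC-1, 44.7% changed, 23.1% upward and 21.6% downward. In HCC827, 8 of the 10 were tested, of which 6 fell and none rose, with 38.0% of all 11999 genes changed and 20.7% changed downward. CXCL3 and CCL20 passed the expression filter in HCC827 through their nc level alone, and IL6 through its shSYK level alone. The number called among the tested genes there is therefore not read further. In PC-9, 2 of the 10 were tested and none was called. There 2.09% of all 12089 genes changed (0.678% upward and 1.41% downward), and of the 2 genes tested CXCL8 had an unadjusted p under 0.05 (0.0493). With no filter, CXCL1, CXCL2 and CXCL3 had an unadjusted limma p under 0.05 in PC-9 (0.0209, 0.0303 and 0.0307), and none of the 10 was called. Limma-voom on the recovered reads over genes with 10 reads or more tested 8 of the 10, gave CXCL1 and CXCL3 an unadjusted p of 0.0105 and 0.0295, and called none. Groups did not overlap for 6 of the 9 tested genes in EBC-1 (56.9% of all genes tested), 7 of the 8 in HCC827 (52.3%) and 1 of the 2 in PC-9 (23.7%). In HCC827, shSYK was the lower group for 6 of these genes (27.6% of all genes tested), and in PC-9 for the 1 gene, CXCL8 (12.3%). The HCC827 genes without overlap include CXCL3, CCL20 and IL6, so their number is not read further either.

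**Figure D2:**
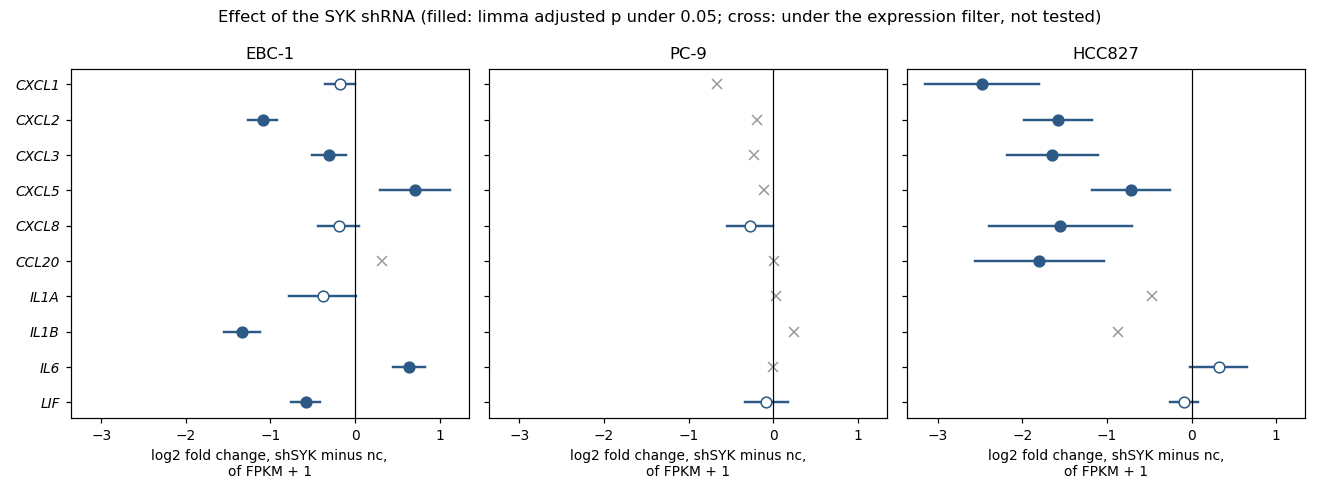
Log2 fold change of FPKM + 1 (shSYK minus nc) for each gene and line, with its 95% interval. Filled points passed a limma adjusted p of 0.05, open points did not, and crosses are genes under the expression filter, shown without an interval. Filled points lie on both sides of 0 in EBC-1 and to the left of 0 in HCC827.

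CXCL1, one of the main neutrophil attractants made by epithelium, fell steeply in HCC827. Its nc libraries held 46.6, 40.7 and 90.7 FPKM and its shSYK libraries 7.65, 8.56 and 11.9 FPKM. Every shSYK library was far below every nc library, and nc replicate 3 stood above the other two. The level under knockdown was 15.8% of nc, with a log2 fold change of -2.47 ± 0.29 (SE, limma adjusted p = 0.000971). In EBC-1 the nc libraries held 116, 109 and 111 FPKM and the shSYK libraries 94.6, 109 and 94.1 FPKM, so that the groups overlapped. The log2 fold change there was -0.18 with a 95% interval of -0.36 to 0.0018 (limma adjusted p = 0.0968), and it passed the threshold only without shSYK replicate 2 (adjusted p = 0.0469). PC-9 libraries held 19, 14 and 19 reads of CXCL1 in nc and 8, 3 and 11 in shSYK. The shSYK libraries were the lower ones, but limma-voom on the recovered reads gave an adjusted p of 0.162.

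CXCL2, a close relative of CXCL1, fell in both EBC-1 and HCC827. In EBC-1 it went from 72.5, 72.8 and 63.0 FPKM in nc to 31.8, 31.9 and 32.1 FPKM in shSYK. The 3 shSYK libraries were nearly equal and lay at 46.0% of the nc mean, with a log2 fold change of -1.09 ± 0.07 (SE, limma adjusted p = 0.00010). In HCC827 it went from 18.4, 19.1 and 29.7 FPKM to 6.21, 6.27 and 7.57 FPKM, which is 29.8% of nc and a log2 fold change of -1.58 ± 0.17 (SE, limma adjusted p = 0.000701). The groups were apart in each of these lines, and the call held under every alternative run there. In PC-9, nc libraries held 3, 7 and 6 reads and each shSYK library 3 reads, at the floor of detection.

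CXCL3, the third of this closely related group, was at 96.5, 86.0 and 78.8 FPKM in EBC-1 nc and at 70.4, 73.0 and 67.0 FPKM in shSYK. The shSYK libraries lay below the nc libraries at 80.6% of their mean, a log2 fold change of -0.30 ± 0.09 (SE, limma adjusted p = 0.0239). That call was lost without nc replicate 1 (adjusted p = 0.0882), without shSYK replicate 1 (0.0634) or without shSYK replicate 3 (0.0643), and with 6 of the other alternatives. In HCC827 the nc libraries held 3.12, 3.80 and 6.73 FPKM and the shSYK libraries 0.451, 0.932 and 0.784 FPKM. All shSYK libraries were under 1 FPKM, and CXCL3 fell to 15.9% of nc, with a log2 fold change of -1.64 ± 0.23 (SE, limma adjusted p = 0.00190). CXCL3 was tested in HCC827 only because of its nc level, a mean of 4.55 FPKM beside 0.722 in shSYK. PC-9 libraries held at most 9 reads. CXCL1, CXCL2 and CXCL3 shared 5.33%, 10.1% and 5.26% of their 50-base words with one another, so a small part of their reads could be assigned to the wrong gene, whereas CXCL5 and CXCL8 shared none.

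CXCL5, an epithelial neutrophil attractant, moved in opposite directions in EBC-1 and HCC827. The EBC-1 nc libraries held 2.49, 3.31 and 1.67 FPKM and the shSYK libraries 4.75, 5.29 and 3.85 FPKM. All shSYK libraries were higher, with a log2 fold change of 0.71 ± 0.18 (SE, limma adjusted p = 0.0156). In HCC827, where CXCL5 was most abundant, the nc libraries held 138, 118 and 184 FPKM and the shSYK libraries 67.0, 97.7 and 99.9 FPKM. The groups did not overlap, the level was 60.3% of nc, and the log2 fold change was -0.72 ± 0.20 (SE, limma adjusted p = 0.0244). That HCC827 call was lost without nc replicate 1 (adjusted p = 0.0528), nc replicate 3 (0.0581) or shSYK replicate 1 (0.0558), and both calls were lost when genes of low expression were kept in the test (0.0646 in EBC-1 and 0.0926 in HCC827). Because the other CXC chemokines fell further, CXCL5 made up 80.6% of their sum in HCC827 shSYK cells. In PC-9 it had 0 reads in 4 of the 6 libraries.

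CXCL8, which encodes interleukin-8, was the most abundant of the 10 genes in EBC-1 and did not pass the threshold there. Its nc libraries held 149, 153 and 123 FPKM and its shSYK libraries 114, 123 and 135 FPKM. The groups overlapped, and the 95% interval of the log2 fold change reached from -0.43 to 0.05 (limma adjusted p = 0.166). In HCC827 the nc libraries held 9.61, 11.2 and 27.2 FPKM and the shSYK libraries 2.95, 4.63 and 5.52 FPKM. It fell to 27.3% of nc, with a log2 fold change of -1.55 ± 0.36 (SE, limma adjusted p = 0.0132). With no filter CXCL8 did not pass in HCC827 (adjusted p = 0.0597). Among the nc libraries, replicate 3 was far above the other two. In PC-9 the nc libraries held 32, 44 and 37 reads and the shSYK libraries 31, 30 and 33 reads. In FPKM the shSYK libraries there were lower without overlap, with a log2 fold change of -0.28 that did not pass (limma adjusted p = 0.320).

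CCL20, the ligand of CCR6, was weakly expressed outside HCC827. HCC827 nc libraries held 2.58, 1.90 and 6.36 FPKM, from 25, 30 and 92 reads. The shSYK libraries held 0, 5 and 5 reads. The gene was tested in HCC827 only because of its nc level, a mean of 3.61 FPKM beside 0.230 in shSYK. CCL20 fell to 6.38% of nc, with a log2 fold change of -1.80 ± 0.33 (SE, limma adjusted p = 0.00511) on the log2(FPKM + 1) scale, which understates changes of low genes. In EBC-1 it stayed under the filter at 6 to 11 reads in nc and 13 to 17 in shSYK, with every shSYK library higher, and limma-voom on the reads gave an adjusted p of 0.0997. PC-9 libraries held at most 2 reads.

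**Figure D3:**
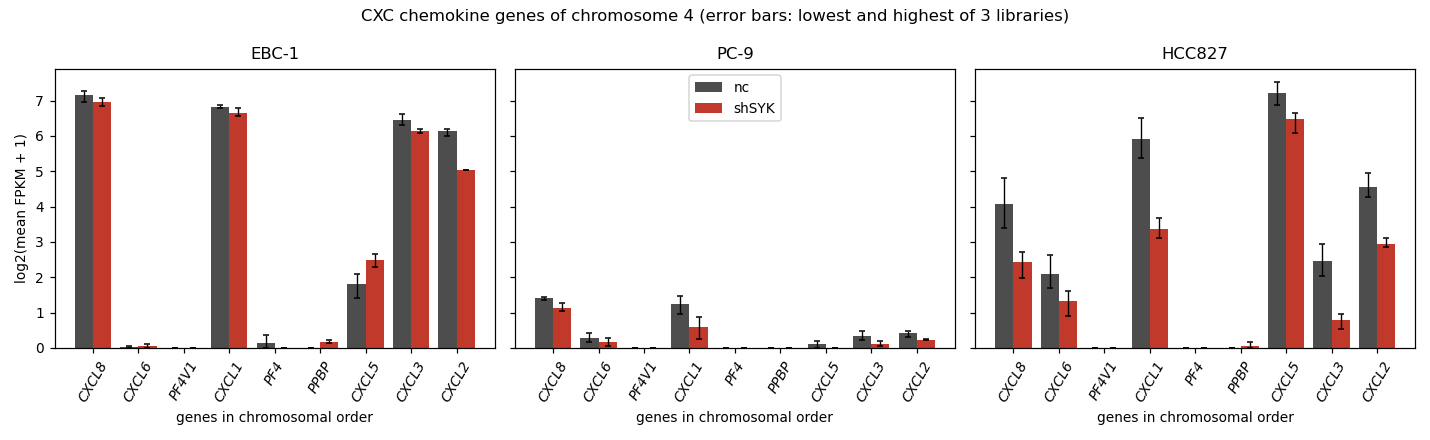
Mean level, as log2(mean FPKM + 1), of the 9 protein-coding genes between CXCL8 and CXCL2 on chromosome 4 in their chromosomal order, for nc and shSYK cells of each line; error bars span the lowest to the highest of 3 libraries. CXCL8, CXCL1, CXCL3 and CXCL2 are the tall bars in EBC-1, CXCL5 is the tallest in HCC827, and PF4V1, PF4 and PPBP are near 0 in every line.

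The neighbours of these genes on chromosome 4 were mostly silent. The span holds 9 protein-coding genes. PF4V1, PF4 and PPBP, which are platelet chemokine genes or their relative, had 0 to 2 reads per library in every line. CXCL6, which encodes a further ligand of CXCR1 and CXCR2, was at 3.28 ± 1.62 FPKM in HCC827 nc and 1.51 ± 0.603 FPKM in shSYK (SD, n = 3). The shSYK libraries were the lower ones, but the difference did not pass the threshold (log2 fold change -0.74, limma adjusted p = 0.0683). In EBC-1, CXCL6 had at most 3 reads per library although its neighbour CXCL8 had 3270 or more.

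IL1B, which encodes the secreted IL-1β, had the largest fall of the 10 genes in EBC-1. Its nc libraries held 11.5, 10.1 and 10.4 FPKM and its shSYK libraries 3.74, 3.18 and 4.01 FPKM. The groups were well apart, with shSYK at 34.2% of nc and a log2 fold change of -1.33 ± 0.09 (SE, limma adjusted p = 0.000102). In HCC827 it was under the filter, with 1.52, 1.07 and 2.04 FPKM in nc and 0.194, 0.516 and 0.444 in shSYK. All of the shSYK libraries were below the nc libraries there. With no filter, limma called IL1B lower (log2 fold change -0.87, adjusted p = 0.029). Limma-voom on the recovered reads over genes with 10 reads or more called it lower too (log2 fold change -1.93 ± 0.38, adjusted p = 0.000421). That last alternative was chosen after seeing the data. In PC-9 the nc libraries held 13 to 17 reads and the shSYK libraries 23 to 34, and in FPKM the groups overlapped, with nc at up to 0.664 and shSYK from 0.588 (limma-voom adjusted p = 0.389).

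IL1A, which encodes the cell-associated IL-1α, did not pass the threshold in any line. EBC-1 nc libraries held 4.88, 6.52 and 4.11 FPKM and shSYK libraries 3.03, 3.50 and 4.60 FPKM, with overlap and a 95% interval of the log2 fold change of -0.78 to 0.0087 (limma adjusted p = 0.10). It was under the filter in HCC827, at 10 to 46 reads in nc and 9 to 22 in shSYK with overlapping groups, and had at most 6 reads in PC-9.

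IL6, which encodes the founding member of its cytokine family, rose in EBC-1. Its nc libraries held 2.07, 1.99 and 2.13 FPKM and its shSYK libraries 3.46, 4.01 and 3.87 FPKM. The groups did not overlap, the level was 183% of nc, and the log2 fold change was 0.64 ± 0.08 (SE, limma adjusted p = 0.00106). In HCC827 the nc libraries held 0.602, 1.07 and 0.942 FPKM and the shSYK libraries 1.21, 1.68 and 1.11 FPKM. The shSYK libraries were higher there too, without overlap, but the log2 fold change of 0.32 did not pass (95% interval -0.02 to 0.66, limma adjusted p = 0.123) except in a fit of all 18 libraries (adjusted p = 0.0364). IL6 was tested in HCC827 only because of its shSYK level, a mean of 1.33 FPKM beside 0.871 in nc. PC-9 libraries held 1 to 5 reads. An antisense gene overlaps IL6 and had at most 15 reads per library, and 2 antisense genes overlap LIF, with at most 66 reads. Whether the counting used strand is not given in the sources used here.

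LIF, which encodes leukemia inhibitory factor, was the only one of the 10 genes above 10 FPKM in every library. It fell in EBC-1, from 59.4, 50.8 and 55.6 FPKM in nc to 37.6, 36.5 and 35.5 FPKM in shSYK. The groups were apart, at 66.0% of nc and a log2 fold change of -0.58 ± 0.07 (SE, limma adjusted p = 0.00107). In PC-9 the groups overlapped, with 27.0, 21.9 and 23.3 FPKM in nc and 22.2, 22.5 and 23.1 FPKM in shSYK (95% interval of the log2 fold change -0.34 to 0.17, limma adjusted p = 0.789). They overlapped in HCC827 as well, with 14.0, 15.6 and 16.3 FPKM in nc and 15.2, 14.0 and 13.8 in shSYK (95% interval -0.25 to 0.08, limma adjusted p = 0.357).

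In HCC827, nc replicate 3 was the highest of the 6 libraries for 9 of the 10 genes, all but IL6. Without it, the log2 fold changes were -2.13 for CXCL1, -1.37 for CXCL2, -1.38 for CXCL3, -1.11 for CXCL8 and -1.40 for CCL20, and all of these 5 still passed the threshold (limma adjusted p = 0.000542 to 0.0093). CXCL3 and CCL20 were tested in HCC827 only because of their nc level, so their passing is not read further. Without nc replicate 3, CXCL5 had a log2 fold change of -0.55 and did not pass (limma adjusted p = 0.0581). Leukocyte markers summed to 3.55 to 4.52 FPKM in the HCC827 nc libraries and to 7.37 to 8.54 in the shSYK libraries. CD79A and CSF1R averaged 1.18 and 1.63 FPKM in nc and 4.24 and 3.11 in shSYK, while CD14 averaged 1.02 in nc and 0.347 in shSYK and FCER1G 0.109 and 0.0671. At least 1 FPKM on average was reached by 3 of the 8 markers in nc and by 2 in shSYK, CD79A and CSF1R, and PTPRC, CD163 and CD3E had 0 reads in every shSYK library. Fibroblast markers summed to at most 2.19 FPKM in HCC827. The lung adenocarcinoma markers summed to 143 to 145 FPKM in the HCC827 nc libraries and to 87.0 to 96.7 in the shSYK libraries, with NAPSA, an aspartic protease of the alveolar epithelium, at 87.1 and 47.8 on average. KRT6A, a keratin of squamous epithelium, averaged 12.2 FPKM in nc and 3.08 in shSYK, while KRT5, KRT14, TP63 and DSG3 averaged under 1 FPKM in both. The part of these marker levels in the HCC827 results was not tested.

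The effect of the knockdown was then compared between lines, as the difference of the shSYK minus nc log2 fold changes in a limma fit of all 18 libraries, adjusted over 14636 genes. Genes with a mean of at least 1 FPKM in at least 1 line entered this fit. CCL20 did so only through its HCC827 nc level, a mean of 3.61 FPKM, so its differences are not read further. The counts for the pairs with HCC827 include it. EBC-1 and HCC827 differed for 6 of the 10 genes (20.6% of all genes tested). The log2 fold change was lower in HCC827 than in EBC-1 by 2.30 ± 0.34 for CXCL1 (SE, adjusted p = 0.000206), by 1.34 ± 0.24 for CXCL3 (adjusted p = 0.00114) and by 1.36 ± 0.38 for CXCL8 (adjusted p = 0.0183, or 0.0525 without HCC827 shSYK replicate 1). CCL20 differed by 2.11 ± 0.33 and CXCL5, with opposite directions in the 2 lines, by 1.43 ± 0.26 (SE, adjusted p = 0.000324 and 0.00119). LIF differed the other way, by -0.49 ± 0.11 (SE, adjusted p = 0.00638). For CXCL2 and IL1B, lower in shSYK in both lines, the differences of 0.49 and -0.46 did not pass (adjusted p = 0.0798 and 0.0986), with 95% intervals of 0.09 to 0.89 and -0.87 to -0.06. The difference for CXCL2 passed with limma-voom (adjusted p = 0.0381) and without HCC827 nc replicate 1 (adjusted p = 0.0356), and that for IL1B without HCC827 nc replicate 3 (adjusted p = 0.0307). Against PC-9, 5 of the 10 genes differed from EBC-1 (18.3% of all genes) and 5 from HCC827 (7.63%), on a scale on which the low PC-9 values can move little. With limma-voom on the recovered reads, 2 and 1 of the 10 genes differed, namely IL1B and LIF between EBC-1 and PC-9 and IL1B between PC-9 and HCC827.

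The 3′ UTRs of most of the 10 genes were rich in the pentamer ATTTA, the core of AU-rich elements, through which proteins such as tristetraprolin shorten the life of an mRNA. In the GENCODE v44 canonical transcripts, the median was 7.48 ATTTA per kb (2.19 in LIF to 14.1 in IL6), against 1.75 in 11008 3′ UTRs of 425 to 3198 bases, the range of the 10. At least 5 per kb was reached by 8 of the 10, all but IL1A (4.38) and LIF, and by 8.9% of the 11008. The longer word TTATTTATT was present in 6 of the 10, CXCL1, CXCL2, CXCL3, CXCL8, IL1B and LIF, and in 7.63% of the 11008. A site is shown, with the word in capitals, for the genes that fell in EBC-1 or were most abundant there.
CXCL8: atgtaaagtaTTATTTATTtgaatctaca
CXCL2: atgtcagttgTTATTTATTgaaatgattt
CXCL3: atgtcagttgTTATTTATTcaaattatct
IL1B: gcttccctatTTATTTATTtatttgtttg
LIF: cagattatttTTATTTATTcaatgtcata
These lie at chr4:73742664-73742692 (plus strand) and, on the minus strand, at chr4:74097246-74097274, chr4:74036773-74036801, chr2:112829995-112830023 and chr22:30240535-30240563 in hg38. CXCL1 carries the same 29 bases as CXCL2 at this site. Their 3′ UTRs differ elsewhere, with 6 ATTTA and 3 TTATTTATT in CXCL1 and 10 and 5 in CXCL2. The part of these sequences in the effects of the knockdown was not tested.

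The receptors of these chemokines were at or under the floor of detection. CXCR1 and CCR6 had 0 reads in all 18 libraries, and CXCR2 had 1 read at most; a count of 0 allows up to 3 reads in a library. Of 15 receptor genes, 8 were tested in EBC-1, where IL1RAP, IL6R and OSMR rose and TNFRSF1B fell. In HCC827, 7 were tested, of which IL1RAP and IL6ST rose and TNFRSF1A and TNFRSF1B fell. Of all genes tested, 44.7% changed in EBC-1 and 38.0% in HCC827. TNFRSF1B, a TNF receptor, was among the 4 largest falls of the pathway genes in EBC-1, from 24.7 ± 2.91 to 10.1 ± 0.717 FPKM (SD, n = 3, limma adjusted p = 0.000232). In PC-9, OSMR, the oncostatin M receptor, rose from 10.4 ± 0.921 to 18.1 ± 1.17 FPKM (adjusted p = 0.0214), and IL1RL1, the IL-33 receptor, fell from 2.40 ± 0.38 to 1.06 ± 0.0215 FPKM (adjusted p = 0.0339). Both PC-9 calls were lost without nc replicate 3, without any one of the shSYK replicates, or with no filter.

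Across 132 other genes of the same pathways, listed by role, 25 rose and 21 fell of 82 tested in EBC-1, 1 rose and 3 fell of 77 in PC-9, and 16 rose and 32 fell of 79 in HCC827. Their median log2 fold change was -0.02, -0.02 and -0.21, against 0.0090, 0.0088 and -0.0053 over all genes tested. Of all genes tested, 23.1% rose and 21.6% fell in EBC-1, 0.678% and 1.41% in PC-9, and 17.2% and 20.7% in HCC827. Of 19 genes of NF-κB signalling, 18 were tested in EBC-1 and in HCC827, and 5 rose and 5 fell in each. None of 19 tested was called in PC-9. MAP3K14, the kinase of the alternative NF-κB pathway, fell in EBC-1 from 18.4 ± 2.02 to 9.66 ± 0.823 FPKM (SD, n = 3, limma adjusted p = 0.000760). Among 20 other cytokines, IL18 rose in EBC-1 from 1.89 ± 0.534 to 4.42 ± 0.192 FPKM (adjusted p = 0.00159). In HCC827, IL23A, IL32 and CSF1 rose, to 271%, 520% and 206% of nc (adjusted p = 0.0068, 0.00141 and 0.000112). Of 22 other chemokines, 3 were tested in EBC-1, where CCL2, a chemokine for monocytes, rose from 2.50 ± 0.656 to 5.54 ± 0.537 FPKM and CX3CL1 fell from 8.79 ± 0.374 to 6.79 ± 0.388 (limma adjusted p = 0.00198 and 0.00827). In HCC827, 6 were tested, of which CXCL16, CCL28 and CX3CL1 fell.

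Genes that feed back on NF-κB or are its known targets moved in both directions. In HCC827, 4 rose, 10 fell and 8 did not pass of 22 tested, beside 17.2% of all genes higher and 20.7% lower, and in EBC-1, 5 rose, 8 fell and 8 did not pass of 21, beside 23.1% and 21.6%. NFKBIZ, which encodes the nuclear cofactor IκBζ, fell in the 3 lines, from 34.0 ± 2.45 to 26.7 ± 1.46 FPKM in EBC-1, from 4.70 ± 0.449 to 2.51 ± 0.318 in PC-9 and from 26.2 ± 4.31 to 11.9 ± 1.96 in HCC827 (SD, n = 3, limma adjusted p = 0.0112, 0.0298 and 0.00131). The EBC-1 call was lost without nc replicate 1 or with TPM rescaling, and the PC-9 call without nc replicate 3, without any one of the shSYK replicates, or with no filter. ZC3H12A, an RNase that degrades cytokine mRNAs, fell in HCC827 to 20.6% of nc (adjusted p = 0.0005), as did the acute-phase gene SAA1, to 20.1% (adjusted p = 0.00134). In EBC-1, SAA2 rose to 232% of nc (adjusted p = 0.000264) and TNFAIP2, a TNF-induced gene, fell to 51.7% (adjusted p = 0.00102). SAA1 and SAA2 are close copies, and the split of reads between them is uncertain. TRAF1, a TNF receptor adaptor, rose in HCC827 to 370% of nc (adjusted p = 0.000961).

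**Figure D4:**
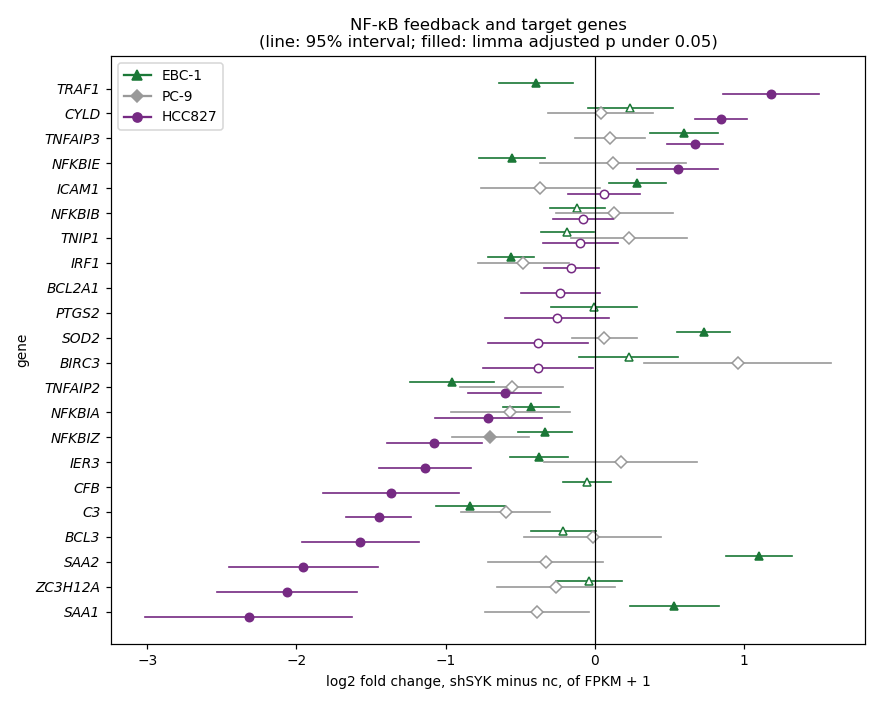
Log2 fold change of FPKM + 1 (shSYK minus nc) of 22 feedback and target genes of NF-κB in EBC-1 (triangles), PC-9 (diamonds) and HCC827 (circles), each with its 95% interval, in the order of the HCC827 values. Filled symbols passed a limma adjusted p of 0.05, and genes under the expression filter in a line have no symbol for it. SAA1 and SAA2 lie to the right of 0 in EBC-1 and to the left in HCC827, and NFKBIZ is filled and to the left in each line.

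S100A8 and S100A9, the subunits of calprotectin, which neutrophils and stressed epithelium make, stood in the list of IL-1 processing and went in opposite directions in EBC-1 and HCC827. S100A9 rose in EBC-1 from 120 ± 10.9 to 334 ± 11.2 FPKM and fell in HCC827 from 374 ± 77.3 to 14.5 ± 7.54 FPKM (SD, n = 3, limma adjusted p = 5.44e-05 and 0.000255). S100A8 rose in EBC-1 from 1.33 ± 0.171 to 12.1 ± 1.02 FPKM (adjusted p = 1.28e-05). In HCC827 S100A8 fell, from 36 to 41 reads per nc library to 0 to 2 reads per shSYK library (adjusted p = 0.000275). In PC-9 S100A8 was lower in shSYK, at 57.2% of nc (adjusted p = 0.0283), a call lost with the same changes as that of NFKBIZ in PC-9. Of 8 genes of mRNA decay and the C/EBP family, 5 fell and 1 rose in HCC827, beside 20.7% and 17.2% of all genes tested. In EBC-1, 2 fell and 1 rose, beside 21.6% and 23.1%. CEBPB, a transcription factor of acute-phase and cytokine genes, fell in EBC-1 from 261 ± 7.25 to 128 ± 17.5 FPKM (adjusted p = 0.000413). Of 8 genes of IL-6 family signalling, 7 were tested in EBC-1, where STAT3, SOCS3 and PTPN11 rose and JAK1 fell. In HCC827, 7 were tested, of which PTPN11 rose and 3 fell, SOCS3 among them. The same shares of all genes tested stand beside these counts.

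The genes whose levels followed those of CXCL8 and CXCL1 most closely were sought over the 18 libraries, with the mean of each line removed, among 7092 genes with a mean of at least 5 FPKM. For CXCL8 they were CXCL3, CXCL1 and XDH (Pearson r = 0.95, 0.94 and 0.93). For CXCL1 they were ZC3H12A, ID1 and ALOX5 (r = 0.98, 0.97 and 0.97). The points share the difference between shSYK and nc within each line, and the correlations are given as a description.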

How the data were processed

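RNA was extracted with TRIzol and sequenced by Novogene on an Illumina HiSeq system. The submitters' processing notes name CASAVA and HISAT2, without versions, and the methods give hg38 as the build. The counting program and annotation are not given in the sources used here. The authors deposited 1 table of FPKM per line. FPKM times gene length gave whole reads, to within 3.04e-05 reads, for 100% of values. Groups were taken from the labels.

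FPKM were tested with limma 3.58.1 in R 4.3.3 on log2(FPKM + 1) with a variance trend. A filter of 1 FPKM and an adjusted p of 0.05 were used. Scripts were tested on simulated data. The settings varied were the pseudocount (0.1), the filter (none, or 5 FPKM), TPM rescaling, quantile normalization, no variance trend, limma-voom on recovered reads, a replicate block, a fit of 18 libraries and leaving out each library. limma-voom over genes with 10 reads or more was added after seeing the data. Python 3.11.15 with numpy 2.4.6, pandas 2.3.3, scipy 1.17.1 and matplotlib 3.10.9 was used for tables and figures. No libraries were copies of each other.

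The 10 genes and the pathway lists were chosen with earlier results of these data known. Named pathway genes were, per line, the 4 largest rises and 4 largest falls without overlap, and those that changed the same way in 3 lines. A few more were named after their values were seen, where a count was small. The largest EBC-1 falls were TNFRSF1B, CEBPB, TNFAIP2 and MAP3K14. For IL1A, whose promoter has 2 entries, both were searched.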

Additional observations from a re-analysis of the deposited data

Results flagged for a closer look

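The effect of the SYK shRNA differed between EBC-1 and HCC827 for 6 of the 10 genes (20.6% of all genes tested), between EBC-1 and PC-9 for 5 (18.3%) and between PC-9 and HCC827 for 5 (7.63%), in a limma test of the difference itself. The differences of log2 fold changes are given here as the first line minus the second. Between EBC-1 and HCC827 they were 2.30 for CXCL1, 1.34 for CXCL3, 1.43 for CXCL5, 1.36 for CXCL8, 2.11 for CCL20 and -0.494 for LIF. Between EBC-1 and PC-9 they were -0.899 for CXCL2, 0.815 for CXCL5, -1.57 for IL1B, 0.643 for IL6 and -0.499 for LIF. Of these, CXCL2 did not pass with limma-voom, a pseudocount of 0.1 or TPM rescaling (adjusted p = 0.931, 0.249 and 0.107), and IL6 did not with limma-voom or a pseudocount of 0.1 (adjusted p = 0.192 and 0.13). Between PC-9 and HCC827 they were 1.81 for CXCL1, 1.39 for CXCL2, 1.42 for CXCL3, 1.81 for CCL20 and 1.11 for IL1B. In PC-9, CXCL2, CXCL3, CXCL5, CCL20, IL1A and IL6 each had 9 reads or fewer in every library, so that their log2(FPKM + 1) could change little there. CCL20 entered these tests only through its HCC827 nc level, so its differences are not read further, although the counts for the pairs with HCC827 include it.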

How the results depend on the processing

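Among the members tested in each line (EBC-1 9, HCC827 8, PC-9 2), none changed direction there under the alternatives run. The number of genes changed in EBC-1 was 3579 with a filter of 5 FPKM. In PC-9 it was 253, but 47 with no filter, 480 with TPM rescaling, 505 with quantile normalization, 480 with limma-voom on the recovered reads, 448 with limma-voom over genes with 10 reads or more, 1513 in a fit of all 18 libraries, and 8 to 624 when a library was left out (8 without shSYK replicate 1, 624 without nc replicate 1). The cause was not tested. Members called stayed between 4 and 7 of 10 in EBC-1 and in HCC827 and at 0 in PC-9. Members whose effect differed between EBC-1 and PC-9 numbered 3 with a pseudocount of 0.1 and 2 with limma-voom, against 5, and between PC-9 and HCC827 3 and 1, against 5. The difference for IL1B between EBC-1 and HCC827, -0.46, turned to 0.26 with a pseudocount of 0.1 and to 0.48 with limma-voom. CXCL5 no longer differed between EBC-1 and PC-9 with 11 of 20 alternatives. TPM rescaling moved the median log2 fold change of all genes in EBC-1 to 0.13, and the split of higher and lower calls from 2876 and 2686 to 4001 and 1891. In HCC827 it moved from 2066 and 2488 to 2471 and 1900. With limma-voom the EBC-1 split was 3874 and 2271 and that of HCC827 was 3022 and 2171. Libraries with the same replicate number did not deviate together in every pair (correlations of -0.41 to 0.54), so they were not treated as pairs. Libraries with other numbers had correlations from -0.55 to 0.58, both in PC-9. Whether some libraries share a batch was not tested. With a replicate block, 6, 0 and 6 members were called in EBC-1, PC-9 and HCC827, and 4326, 172 and 4111 genes, and NFKBIZ, S100A8 and IL1RL1 lost their PC-9 calls. The block also gave an adjusted p of 0.0348 for the difference of CXCL2 between EBC-1 and HCC827. In PC-9, 8 of the 10 genes lay under the filter of 1 FPKM and so were not tested.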
